A study of Drosophila melanogaster with 8 samples.

Results

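The proteins of the small (40S) subunit of the cytosolic ribosome are encoded in Drosophila melanogaster by genes whose FlyBase symbols begin with RpS and a digit, together with stubarista (sta), and the relative levels of their mRNAs were compared between synaptosomes and the head homogenate from which these were prepared. Genes were chosen by symbol alone, with mitochondrial ribosomal protein genes left out. The gene called string of pearls (sop) carries the symbol RpS2 in the annotation and was counted once. Of 39 genes annotated in this way, 35 were among the 10669 genes of the count table; RpS10a, RpS12, RpS19b and RpS28a were not analysed here. After removal of genes with low counts 34 of the 35 were tested, because RpS28-like had 11 counts in all, each of them in input library 3.

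The small subunit receives the mRNA, scans it for the start codon and reads the codons, and its proteins are grouped by position into a head, a body and a platform around the 18S ribosomal RNA. Each protein is present once per subunit, and many of the fly genes were first found as Minute loci, at which loss of 1 copy slows growth. In neurons, ribosomes are seen in dendrites and in some axons, and ribosomal protein mRNAs are among those that have been recovered from neuronal processes of several animals. Synaptosomes are nerve terminals that pinch off and reseal when brain tissue is sheared.

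All groups were wild type; per the study's methods the flies were w1118 and 3 days old, and each preparation pooled the heads of many animals. Input is the filtered homogenate of adult heads, and the synaptosome samples are Percoll fractions 3 and 4, of which the first also holds other membranes. No sorting by cell type was done, so terminals of every neuron of the head, with any co-purified material, are represented. RNA was profiled by 3′-seq, which places each read at a polyadenylated transcript end, so levels were not divided by transcript length. There were 4 libraries a group, named 1, 2, 3 and old as in the count table. The labels list samples 1 to 4 of each group, and nothing ties the columns named old to samples 4; they were placed in a group by the prefix they share with its other columns. Nothing in the labels ties the libraries of a group to separate collections of flies, and the p-values therefore reflect the spread of these libraries alone, part or all of which may be technical.

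Levels are given as counts per 1000000 (CPM) of the library total after TMM scaling, and differences as log2 fold changes of synaptosome over input with an approximate standard error (SE). A gene was called when its Benjamini-Hochberg adjusted p-value from the quasi-likelihood test of edgeR, over all 8159 tested genes, was under 0.05. On this scale the middle value over all tested genes was −0.35. Total counts ranged from 1029666 to 9397652 in synaptosomes and from 7940909 to 16865581 in input. In a bulk fraction, fewer cells or terminals of a type and less RNA in each of them cannot be told apart.

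The libraries named old stood apart from the others for these genes. Between synaptosome old and input old, all 33 members with counts in both were lower in the synaptosome library, with a median log2 ratio of −1.61, whereas 52.7% of all tested genes were lower there, with a median of −0.08. This was not particular to the small subunit. Of the large subunit genes 43 of 44 were lower there (median −1.65), and of the mitochondrial ribosomal protein genes 64 of 69 (median −1.36). In the fit without both old libraries 18 of the same 33 members were negative, with a median of −0.26, and 15 were positive. A term for the difference between the old pair and the other 6 libraries was added after the values had been seen: it was negative at an unadjusted p under 0.05 for 12 of 34 members and positive for 0, against 3.14% and 5.55% of all tested genes, but 0 members and 0 of all 8159 genes passed after adjustment (edgeR, smallest adjusted p of a member 0.554 for RpS15Aa, n = 8 libraries). Input old gave the highest input level of 29 of the 33 members, synaptosome old the lowest synaptosome level of 20, and synaptosome 1 the highest of 24. The fat body markers Yp1, Yp2, Yp3, Lsp2, apolpp and to were also high in both old libraries, at a summed 14161 CPM in synaptosome old against 947 to 1315 CPM in synaptosomes 1 to 3, and 15723 CPM in input old against 3360.0 to 3602 CPM in inputs 1 to 3. Their part in the results was not tested. Fits without the old pair are therefore also given for the main counts and for many of the members.

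In synaptosomes 10 of the 34 tested members were lower and 0 were higher. Of all tested genes 4.13% were lower and 0.944% were higher, so the 29.4% of small subunit genes called lower lay above the background. RpS5b had no synaptosome counts and passed the filter through input alone. Among genes with synaptosome counts 9 of 33 members were lower (27.3%), against 1.19% of 7900. Of the 337 genes called lower, 94 had synaptosome counts. The adjustment also covered the genes without such counts and was not repeated without them, so calls near the threshold may depend on them. Among the 10 were RpS5b, RpS3, RpS26, RpS5a, RpS6, RpS23, RpS10b, RpS18 and RpS13. With an unadjusted p under 0.05 there were 16 members below input and 1 above it, against 9.85% and 4.44% of all tested genes. DESeq2 called 11 members lower and 1 higher, against 6.56% and 2.81% of its 9465 genes. The members did not move as one group: 23 log2 fold changes were negative and 11 positive, with a median of −0.58 (interquartile range −1.40 to 0.11), which was also −0.58 with RpS5b set at the bound given below. The calls lay close to the threshold, since 5 of the 10 adjusted p-values were over 0.04. With a replicate block, a term for the library names 1, 2, 3 and old, 5 of the 10 were called, and 66 of all 8159 genes were lower. RpS23, RpS10b, RpS18 and RpS13 did not pass in that fit. Leaving out 1 library left 3 members lower without synaptosome 1, 10 without synaptosome old, 1 without input 2, 1 without input old, and 0 without synaptosome 2, synaptosome 3, input 1 or input 3; over all genes such fits called between 1 and 984 genes lower. Without both old libraries 9 of the 10 were called, all but RpS5b with an adjusted p of 0.0504, and 1 member was higher; 6.14% and 1.72% of 8066 genes were lower and higher in that fit.

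**Figure D1:**
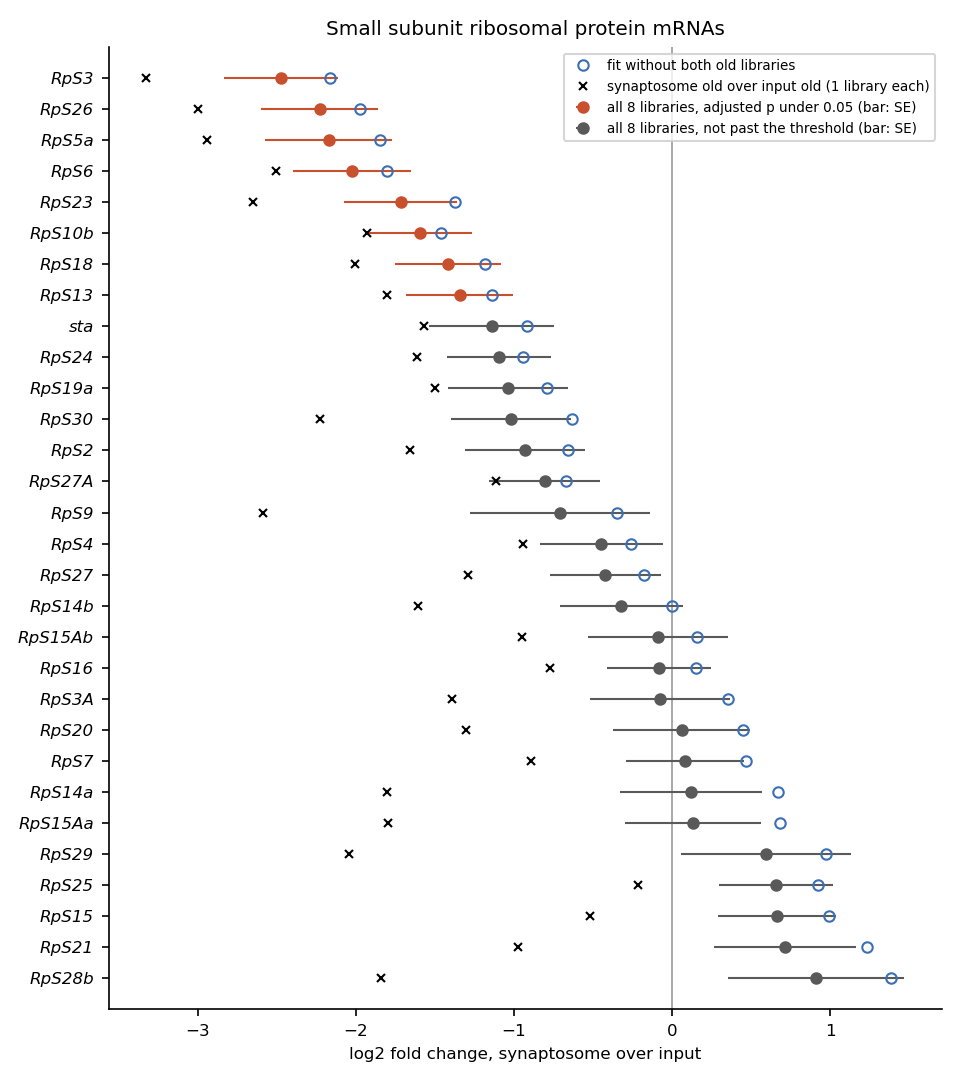
Log2 fold change of synaptosome over input (x axis) for 30 members with counts in every library (y axis). Filled points are the edgeR fit over 8 libraries with SE bars, orange where the adjusted p was under 0.05, open circles the fit without both old libraries, and crosses the ratio of the single libraries synaptosome old and input old; all 30 crosses lie below 0, while 13 open circles lie above it.

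Proteins that line the entry of the mRNA channel and the decoding site include the member with the lowest adjusted p-value. RpS3 (chromosome 3R, 23358812 to 23360207, plus strand), part of the channel through which the mRNA enters, was at 480.4, 356, 372 and 292 CPM in synaptosomes 1, 2, 3 and old and at 1899.7, 1731, 1772 and 2927 CPM in the input libraries in the same order. The groups were well separated: the highest synaptosome value, in library 1, was far under the lowest input value, in library 2. RpS3 fell by 2.47 ± 0.36 on the log2 scale (adjusted p = 0.0141) and was the member called most often when single libraries were left out, in 4 of 8 such fits. RpS23, a protein of the decoding centre, was at 1374, 1283, 1799.8 and 1052 CPM against 4007, 4014, 3486 and 6600.4 CPM, and fell by 1.72 ± 0.36 (adjusted p = 0.0474). Again no synaptosome library reached the lowest input library.

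RpS2, RpS30 and RpS9 did not pass. RpS2 (sop), also of the entry side, was at 1798, 859.7, 846 and 929.6 CPM against 1977, 1615, 1926 and 2938 CPM, and synaptosome 1 lay inside the input range (log2 fold change −0.93 ± 0.38, adjusted p = 0.259). RpS30, made as a fusion with a ubiquitin-like protein, was at 1062 to 2490.4 CPM against 2859 to 4982 CPM without overlap, with a log2 fold change of −1.02 ± 0.38 (adjusted p = 0.202). RpS9 had the highest mean level in input and varied widely: 3820.2, 11559, 3529.5 and 7399 CPM, against 6962, 2199, 5688 and 1229 CPM in synaptosomes. The 2 groups overlapped widely (log2 fold change −0.71 ± 0.57, adjusted p = 0.692).

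RpS26 is a protein of the platform. It lines the path of the mRNA upstream of the codon being read, and in yeast it can leave the ribosome under stress. RpS26 (2L, 18441335 to 18443277, minus strand) was at 1193, 649, 743 and 601 CPM in synaptosomes and at 2916, 4004, 3221 and 4803 CPM in input. It fell by 2.23 ± 0.37 (adjusted p = 0.0234), with every synaptosome library at less than the lowest input level. RpS28b, another protein of the exit side, had the opposite sign outside the old pair: 9098, 3332, 5002 and 854 CPM against 1887, 2373, 2396 and 3062 CPM. Synaptosomes 1 to 3 each exceeded every input library and synaptosome old was below every one (log2 fold change 0.91 ± 0.56, adjusted p = 0.548; without both old libraries 1.39, adjusted p = 0.0647).

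RpS6, the substrate of S6 kinase downstream of TOR, was at 266, 204, 246 and 254 CPM in synaptosomes and 671, 742, 1084 and 1443 CPM in input. It fell by 2.02 ± 0.37 (adjusted p = 0.0311), with little spread between synaptosome libraries. The pseudogene CR33222 overlaps its 3′ end on the same strand, so reads of the 2 genes could not be told apart here.

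Of the body, RpS13, which forms a bridge to the large subunit, was at 849, 732, 820.2 and 853 CPM against 1844, 1563, 1879.9 and 2972 CPM (log2 fold change −1.34 ± 0.34, adjusted p = 0.0490). The groups were separate and input old was the highest library. Of the head, RpS18, which contacts the large subunit, was at 1229, 872, 1062 and 928 CPM against 2120.3, 2719, 2347 and 3733 CPM (−1.42 ± 0.34, adjusted p = 0.0490). RpS10b, near the mRNA entrance and in human cells a site of ubiquitylation when ribosomes collide, was at 560.0, 533, 619.7 and 578 CPM against 1406, 1935, 1377 and 2199.8 CPM (−1.59 ± 0.33, adjusted p = 0.0474). RpS10b had one of the narrowest spreads in synaptosomes, 573 ± 36.5 CPM (SD, n = 4). An antisense gene overlaps RpS10b (CG14220), RpS15 (CG4945), RpS20 (CG17272), RpS28b (CG15317) and RpS29 (asRNA:CR31514), among others, at or close to the 3′ end. One lies close to the 3′ end of RpS15Ab (CG12343) and of RpS18 (asRNA:CR43812) without overlap of the genes. Whether counting used strand is not given in the sources used here.

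Once the old pair was set aside, other members lay above input. RpS21, a small protein that binds sta in flies, was at 6614, 2484, 3941 and 1793 CPM against 1777, 1749, 2003 and 3515 CPM (log2 fold change 0.71 ± 0.45, adjusted p = 0.572). Its partner sta had the opposite sign, at 1592, 795, 1086 and 1466 CPM against 1709.8, 2717, 2116 and 4358 CPM. For sta no synaptosome library reached input, yet it did not pass (−1.14 ± 0.40, adjusted p = 0.160). RpS15, a head protein near the decoding site, RpS25, which several viral RNAs need to recruit ribosomes, RpS29, a zinc-binding protein of the head, and RpS15Aa also had higher levels in synaptosomes 1 to 3 than in inputs 1 to 3, and RpS21 did so too. With all 8 libraries their log2 fold changes were 0.13 to 0.71 and none passed. Without both old libraries they were 0.68 to 1.24, and again none passed (adjusted p = 0.0723 to 0.162, edgeR).

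Counting whole groups that do not overlap, 15 members had every synaptosome library below every input library and 0 had every one above; over all tested genes the shares were 14.5% and 2.99%. Without the old pair the counts were 15 below and 8 above, against 28.3% and 6.7% of all genes. Among the 8 were RpS15, RpS15Aa, RpS21, RpS25, RpS28b and RpS29, and the 15 were the 10 called members with sta, RpS19a, RpS24, RpS27A and RpS30. All 15 below were shared between the sets with and without the old pair, and the 8 above were found only without it.

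**Figure D2:**
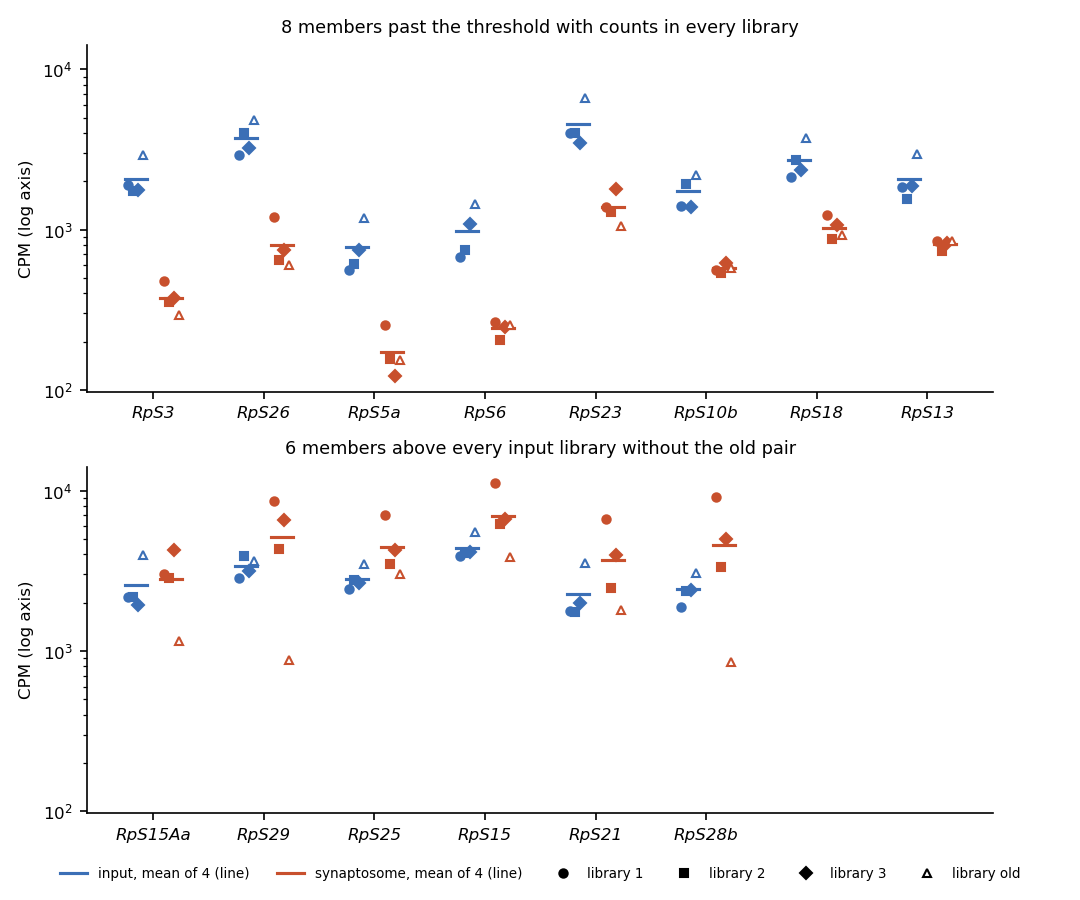
CPM on a log axis for 8 members past the threshold (upper panel) and 6 members above every input library once the old pair was left out (lower panel). Symbols are single libraries of input (blue) and synaptosome (orange), open triangles the old libraries, and lines the means of 4; in the upper panel no synaptosome point reaches an input point of the same gene, and in the lower panel the filled orange points lie above the filled blue ones while each open orange triangle lies below the open blue triangle of its gene.

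The remaining members did not pass. RpS16 of the head was at 5088, 4369, 6367 and 3908 CPM against 4511, 5679.9, 4034 and 6660.5 CPM, with a difference of −0.08 ± 0.33 on the log2 scale. RpS4, RpS7, RpS14a, RpS14b, RpS15Ab, RpS20, RpS27 and RpS3A had log2 fold changes between −0.45 and 0.12, with overlapping groups and no call. Without both old libraries these were between −0.26 and 0.67, again with no call. RpS3A, the single member on chromosome 4, had −0.07 ± 0.44. RpS24, RpS19a and RpS27A, the last of which is made as a fusion with ubiquitin, were at −1.09, −1.04 and −0.80 without overlap between the groups and did not pass (adjusted p = 0.0913, 0.192 and 0.314), although DESeq2 called RpS24 lower (−0.98, adjusted p = 0.0214).

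The makeup of the family can be read without any scaling, as each member's percent of all small subunit counts in its library. By that measure 11 members were below input in every synaptosome library and 4 were above, the old libraries included. As it is taken within the family, this measure has no counterpart over all genes. The shares are parts of a whole, so falls in some members raise the shares of others. RpS15 was among the 4, although it was at 3858 CPM in synaptosome old and 5530 CPM in input old. RpS15 made up 8.93% ± 1.23 of small subunit counts in synaptosomes and 5.10% ± 0.581 in input (SD, n = 4 each), RpS25 5.82% ± 0.959 against 3.27% ± 0.321, and RpS21 4.53% ± 0.843 against 2.54% ± 0.395. In the other direction RpS3 took 0.515% ± 0.127 against 2.38% ± 0.314 and RpS26 1.06% ± 0.237 against 4.27% ± 0.245. As a ratio within a library, chosen after the values had been seen, RpS28b had 7.63, 5.14, 6.73 and 1.42 counts for each count of RpS26 in synaptosomes 1, 2, 3 and old, and 0.647, 0.593, 0.744 and 0.637 in input. These ratios show unequal change of the 2 genes and not which of them moved.

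The order of members by level differed accordingly. Between 2 input libraries Spearman's rho over 33 members was 0.882 to 0.954, between 2 synaptosome libraries 0.828 to 0.965, and between a synaptosome and an input library 0.671 to 0.764, in 16 pairs; members of 1 library share its depth and scaling, so these are descriptions. The levels were also spread more widely in synaptosomes. The SD of log2 CPM over members was 1.36 to 1.75 there and 1.09 to 1.19 in input, and the 5 most abundant members of a library held 39.4% to 41.9% of small subunit counts against 26.4% to 34.3%.

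Small subunit mRNAs as a whole took 10.3%, 6.98%, 9.55% and 3.95% of all counts in synaptosomes 1, 2, 3 and old, and 7.79%, 8.74%, 8.46% and 9.91% in input. The means were 7.70% ± 2.88 and 8.73% ± 0.886 (SD, n = 4), a difference smaller than the spread between synaptosome libraries, and without the old pair the synaptosome mean was the higher one, 8.95% ± 1.76 against 8.33% ± 0.488 (n = 3). The large subunit took 6.41% to 9.88% in synaptosomes and 9.95% to 12.9% in input. For each count of large subunit genes there were 1.18, 0.762, 0.967 and 0.617 counts of small subunit genes in synaptosomes and 0.763 to 0.845 in input, so that ratio was higher than in any input library in synaptosomes 1 and 3 and lower in synaptosomes 2 and old.

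**Figure D3:**
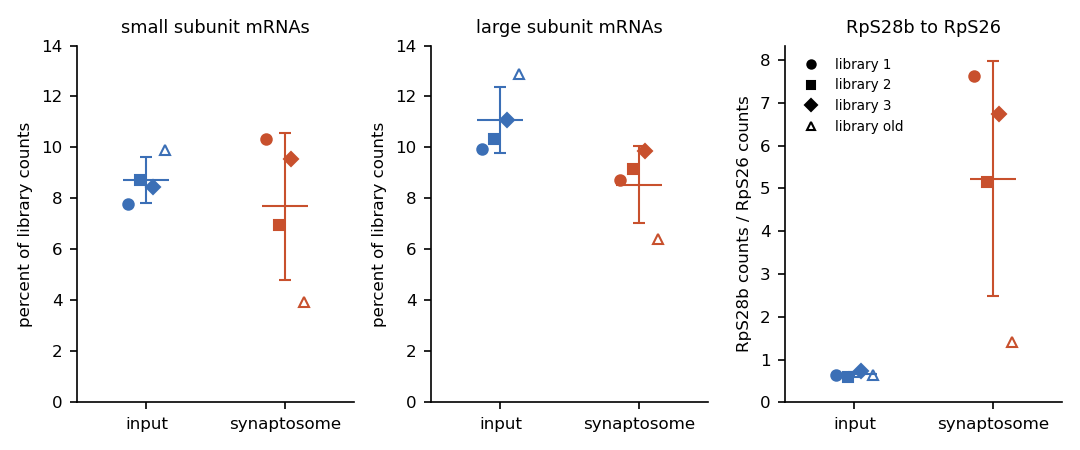
Percent of library counts in small subunit (left) and large subunit genes (middle) and the count ratio of RpS28b to RpS26 (right), in input (blue) and synaptosome (orange) libraries. Points are libraries, open triangles the old ones, horizontal lines means and bars SD of 4; the small subunit share overlaps between groups, while the ratio is 0.593 to 0.744 in input and 1.42 to 7.63 in synaptosomes.

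Several members have paralogs, and 4 such pairs could be compared. RpS5a (X, 17143588 to 17148264, minus strand) is used throughout the body, whereas RpS5b (3R, 14900432 to 14901563, minus strand) is known in flies for its high level in ovarian germ cells; both encode a head protein that contacts the mRNA at the exit. RpS5a was at 254, 157, 122 and 153 CPM in synaptosomes and at 561, 613, 743 and 1179 CPM in input, and fell by 2.17 ± 0.40 (adjusted p = 0.0325). RpS5b had 0 counts in every synaptosome library and 220, 317, 225 and 1279 counts in the input libraries, or 24.7, 34.3, 16.9 and 92.5 CPM. With a floor of 3 counts per synaptosome library, its mean input level was 29.0-fold the mean floor, and 17.45-fold without input old. This bound compares means and does not hold for each library. The lowest input level was 16.9 CPM, and the floors of single synaptosome libraries were 0.352 to 2.63 CPM. It passed the filter on low counts through input alone, so its adjusted p, 0.0325 over all libraries and 0.0504 without both old ones, is given as a description.

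RpS5b made up 4.22%, 5.29%, 2.22% and 7.27% of the counts of its pair in input. In synaptosomes it was 0 of 1088, 179, 173 and 1307 counts, which allows shares of up to 0.276%, 1.68%, 1.73% and 0.230%. Every one of these limits is below the lowest input share, so RpS5b took a smaller share of its pair in synaptosomes; intervals and limits cover counting error only. The reads of RpS5b in input also came from different 3′ ends: end 0 had 215, 310 and 195 counts in inputs 1 to 3 and 0 in input old, where all 1279 counts were at end 1. Ovary markers were followed beside it. Over the list of 11 their summed level was 13.4 to 79.3 CPM in synaptosomes and 8.54 to 49.7 CPM in input. Of the germline genes, vas, nanos and aub had 0 counts in every synaptosome library, while osk had 4 in synaptosome 2 and 30 in synaptosome old. Of the eggshell genes, Cp15 and Cp38 were detected in synaptosomes and Vm26Aa and Vm34Ca in synaptosome old alone. Cp16, Cp18 and Cp36 had 0 counts in every synaptosome library. The part of ovarian RNA in the RpS5b result was not tested.

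RpS14a and RpS14b, which encode a platform protein, lie 220 bases apart on the X chromosome and are near-identical copies, so their separate counts are uncertain. RpS14b made up 5.71%, 8.75%, 8.87% and 8.88% of the pair in synaptosomes and 10.7%, 10.9%, 12.3% and 7.82% in input, and the groups overlapped through input old. RpS14a itself was at 9778, 4407, 6862 and 2412 CPM against 4065, 4807, 4310.3 and 8426 CPM, and RpS14b at 592, 422, 668 and 235 CPM against 489, 587, 602 and 715 CPM. Neither gene passed (adjusted p = 0.958 and 0.832).

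RpS15Aa and RpS15Ab encode a protein of the body. RpS15Ab had the lowest level of the 33 members in every library, at 128, 58.7, 112 and 57.5 CPM in synaptosomes and 73.9, 119.9, 74.0 and 111 CPM in input. It held 4.09%, 2.02%, 2.57% and 4.76% of the counts of the pair in synaptosomes and 3.31%, 5.21%, 3.70% and 2.71% in input, and these ranges overlapped. RpS15Aa was at 3001, 2847, 4237 and 1152 CPM against 2162, 2179, 1928 and 3995 CPM (log2 fold change 0.13 ± 0.43, adjusted p = 0.953). Of RpS28b and RpS28-like, nearly all counts were RpS28b in every library. RpS10b and RpS19a are given above without their partners.

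**Figure D4:**
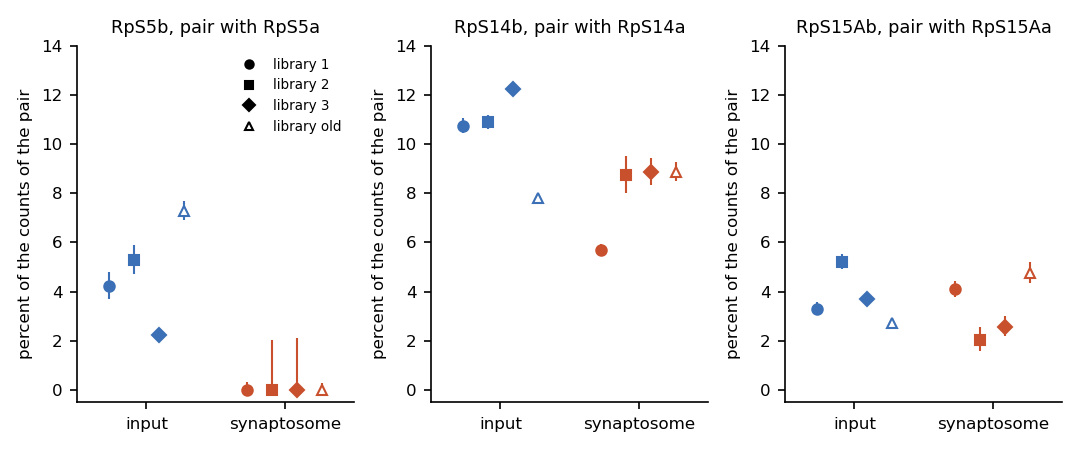
Percent of the counts of a paralog pair taken by RpS5b, RpS14b and RpS15Ab in each input (blue) and synaptosome (orange) library, with exact 95% binomial intervals. RpS5b is at 0 in all 4 synaptosome libraries and at 2.22% to 7.27% in input, whereas the other pairs overlap between groups.

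Counts per 3′ end allow the members to be followed end by end. They had 106 ends, of which 96 had reads and 52, of 33 members, were tested. Of these 10 were lower and 0 higher, where 6.46% and 0.732% of all 11062 tested ends were lower and higher. Without both old libraries 12 were lower and 1 higher, against 14.5% and 1.34% of 10826 ends. The 10 were the main ends of 9 called members, all but RpS5b, whose ends were not tested, and that of RpS24, which fell by 1.25 (adjusted p = 0.0390) although the gene did not pass. For 28 members more than 99% of counts came from 1 end. Use of the ends within a gene could be tested for 36 ends of 17 members, and 0 passed, as did 0.0% of all 5240 ends in that test (edgeR's diffSpliceDGE); 0 of the 36 had an unadjusted p under 0.05.

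RpS27 was the member with the most mixed ends. Its end 2 held 12.5%, 10.3%, 12.8% and 12.1% of the counts in synaptosomes 1, 2, 3 and old and 4.73%, 5.71%, 3.91% and 3.23% in input. The libraries did not overlap, yet the test did not pass (adjusted p = 0.809, unadjusted p = 0.0652). The minor end 1 of RpS15 went the other way, at 3.81% to 4.98% in synaptosomes and 6.32% to 10.7% in input, without overlap and without a call. The ends carry numbers but no coordinates, so what separates them was not analysed here.

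Lower members were found in every split of the family by role, where 4.13% of all tested genes were lower. Of head proteins 5 of 14 were lower, and of body and platform proteins 5 of 20. Of members with a bacterial counterpart 6 of 18 were lower, and of those without one 4 of 16. Members of paralog pairs gave 3 of 9 and single members 7 of 25. RpS5b, which had no synaptosome counts, is counted as lower in the head, bacterial counterpart and paralog pair lists. These lists describe position and descent, and no split was tested.

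Coding length differed between the ends of the range, an observation made after the values had been seen. Over the 33 members with synaptosome counts, Spearman's rho between coding length and log2 fold change was −0.49. It was −0.40 over 44 large subunit genes, −0.15 over 69 mitochondrial ribosomal protein genes and −0.09 over 7771 genes, and the points share libraries and scaling. Of 12 members under 400 coding bases 1, RpS26, was lower, with a median of 0.10. Of 13 members from 400 to under 600 bases 4 were lower (median −0.71), and of 8 with 600 or more 4 were lower (median −1.43), RpS5b being left out. All tested genes with synaptosome counts had medians of 0.17, −0.34 and −0.35 in these length classes. Of them 4 of 577, 16 of 685 and 74 of 6509 were lower. Large subunit genes had medians of 0.131, −1.176 and −1.001, which did not keep falling with length. Of these 0 of 13, 7 of 18 and 5 of 13 were lower. Within single libraries rho over the 33 small subunit members was −0.43, −0.54 and −0.55 for synaptosomes 1 to 3 against mean input. It was −0.10 for synaptosome old. RpS26, with 114 codons, and RpS3A, with 268 codons, lay away from the trend.

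**Figure D5:**
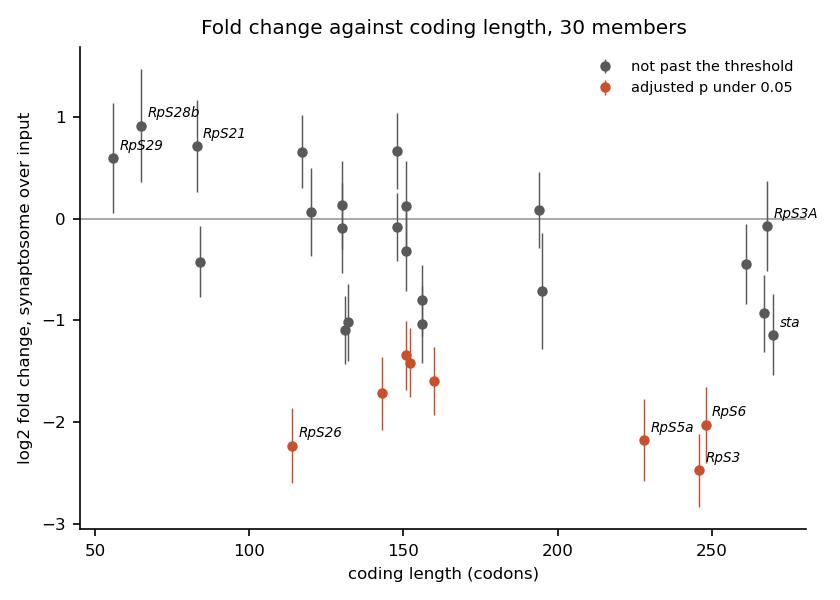
Log2 fold change of synaptosome over input with SE (y axis) against coding length in codons (x axis) for 30 members, orange where the adjusted p was under 0.05. The shortest proteins, RpS29 and RpS28b with 56 and 65 codons, lie above 0 and RpS5a, RpS3 and RpS6 with 228, 246 and 248 codons below −2, while RpS26 with 114 codons lies at −2.23 and RpS3A near 0.

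The large subunit served as the nearest comparison. Of 44 large subunit genes 12 were lower (27.3%) and 0 higher, with a median log2 fold change of −0.74, against 29.4% of the small subunit genes with a median of −0.58, and the difference between the subunits was not tested. Of 69 mitochondrial ribosomal protein genes 0 were lower and 1, mRpL33, was higher, with a median of −0.60. Among 19 initiation factors that bind the small subunit, eIF3k and eIF3l were lower and 0 were higher (median −0.69). Of 20 genes for assembly and control of the small subunit, such as Fib, bys and S6k, 0 were lower and 0 higher (median −1.28), and 2 were below input with an unadjusted p under 0.05 while 0 were above.

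Markers of cell types were read beside these results. The neuron markers elav, nSyb, Syt1, brp, Csp and Syn were all detected in each library but synaptosome 3, where 5 of 6 were, and summed to 89.8 to 324 CPM in synaptosomes and 179 to 771 CPM in input, with 0 of 6 called. Photoreceptor markers summed to 20627 to 107227 CPM and 48722 to 66375 CPM, with 2 of 6 lower (ninaE and trp). Muscle markers summed to 488 to 2288 CPM and 2481 to 6808 CPM, with 2 of 6 lower (up and Mlc2) and no overlap of the summed level. Glia markers were at 1532 to 3558 and 1689 to 2484 CPM, and testis markers at 13.4 to 88.2 and 0.674 to 6.27 CPM, with 0 called in either list. Of the 5 testis markers 2 were tested, and their sums rest on few counts, such as 19 in synaptosome 3 and 6 in input 1. Of these summed levels that of muscle was below every input library in all 4 synaptosome libraries and that of testis above. Among libraries 1 to 3 alone, neuron (167 to 324 against 598.7 to 771 CPM), photoreceptor (20627 to 42478 against 48722 to 64262 CPM) and fat body markers were below every input library too, and glia markers were above (2879 to 3558 against 1761 to 2484 CPM). The part of these cell types in the levels of the members was not tested.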

How the data were processed

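Per the study's methods, the authors used fastp for trimming and STAR 2.6.1b for alignment on dm6, removed sites of internal priming, and kept read clusters at known 3′ ends. The deposited counts are whole reads per gene and per 3′ end, not normalized. The methods mention no molecular identifiers, and intervals and limits cover counting error only. The authors' deposited DESeq2 columns (mean signal, log2 fold change, p-value) were not used. Group libraries whose columns read old carry no number.

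Genes were matched by symbol in a release 6 annotation (82 identifiers had none); coordinates are 1-based. Counts were filtered with filterByExpr, scaled by TMM and compared in R 4.3.3 with edgeR 4.0.16 (robust quasi-likelihood test, no covariates), adjusted over all tested genes or ends, after tests on simulated data; diffSpliceDGE tested end usage. SE is the absolute log2 fold change over the square root of F. Alternatives were a replicate block, a batch term, other scalings and filters, DESeq2 1.42.0, and leaving out libraries. Values per library are given for called members, paralog pairs, the 3 highest and 3 lowest fold changes, sta, RpS2 and the 3 most abundant in input, and for others after their values were seen; 3 members are counted but not reported here by name or drawn. The members and lists were chosen with earlier results of these data known. Total counts per library, 1029666 to 16865581, set the precision. Markers of nucleus-retained RNA were not analysed here (0 of 3 in the table).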

Additional observations from a re-analysis of the deposited data

Results flagged for a closer look

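Dixon's criterion, which flags about 1 in 20 sets by chance, was applied to 69 sets of values in groups of 4 libraries. The sets share libraries and scaling, so the number flagged is a description and is not compared with that rate. In 9 of the 69 sets, 1 library was set far from the other 3. In 8 of them it was input old, the highest input library: RpS14a at 8426 CPM, RpS15 at 5529.6 CPM, RpS15Aa at 3995 CPM, RpS19a at 3116 CPM, RpS21 at 3515 CPM, RpS23 at 6600.4 CPM, RpS3 at 2927 CPM and RpS30 at 4982 CPM. In the remaining set synaptosome 1 was above the other synaptosome libraries for RpS2, at 1798 CPM. RpS3 and RpS23, the called genes among these, were lower without both old libraries as well (log2 fold change −2.16 and −1.37, adjusted p = 0.0201 and 0.0487, edgeR).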

How the results depend on the processing

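Per the study's methods, input was taken from the homogenate that gave the synaptosomes, but no label states which libraries belong together. Libraries 1 to 3 did not deviate with their namesakes (r = 0.0026, 0.0394 and −0.0179), and the old pair gave 0.25. The names were not used to pair samples in the main fit, though an r near 0 does not exclude a shared origin. With the replicate block 5 members were lower in place of 10, and 66 of all 8159 genes in place of 337. RpS23, RpS10b, RpS18 and RpS13 did not pass there (adjusted p = 0.058, 0.0603, 0.123 and 0.141, edgeR). The members lower numbered 0 to 10 when single libraries were left out, and the members higher 0 to 1, against 1 to 984 and 0 to 182 of all genes. In DESeq2 1 member was higher, against 266 of 9465 genes, and 1 without both old libraries, against 139 of 8066. Ends lower numbered 6 when features had to average 100 counts or more, against 62 of all 6175 ends. With single libraries left out they numbered 0 to 13, against 1 to 1956 of all ends. Ends higher numbered 1 with library totals alone, against 112 of 11062, and 1 without both old libraries, against 145 of 10826. With single libraries left out ends higher numbered 0 to 1, against 0 to 168 of all ends. Ends with changed usage numbered 0 in each of the fits run. Without both old libraries the members with every synaptosome library above every input library numbered 8 in place of 0, against 6.7% in place of 2.99% of all tested genes. The median of the family was −0.83 to −0.42 with single libraries left out and −0.30 without both old libraries. The difference in share of counts, −1.02 percentage points, was −1.90 to 0.23 with single libraries left out; for the shares of RpS5b, RpS14b and RpS15Ab in their pairs it was −5.59 to −3.91, −3.24 to −1.59 and −0.84 to 0.12.

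Of the 34 members 8 changed sign in some of the 16 alternatives, 0 of the 10 called among them. RpS15Ab, RpS16 and RpS3A became positive with RLE size factors (0.0227, 0.0304 and 0.0391), with a mean of 100 counts or more (0.0196, 0.0308 and 0.0346), with DESeq2 (0.0231, 0.0304 and 0.0391) and without both old libraries (0.16, 0.15 and 0.36), as RpS14b did in the last (0.0024). RpS20 was −0.10 with the replicate block. With single libraries left out the ranges were −0.25 to 0.41 for RpS14a, −0.14 to 0.42 for RpS15Aa, −0.33 to 0.12 for RpS15Ab, −0.24 to 0.0504 for RpS16, −0.44 to 0.30 for RpS20, −0.56 to 0.19 for RpS3A and −0.14 to 0.36 for RpS7. The causes were not tested. Synaptosome 2, with 1029666 counts, had the fewest reads, and 1 count there was worth the most CPM.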
